A study of Mus musculus with 19 samples.

Results

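The genes described here are 10 transcription factor genes of the mouse uterus, Msx1, Msx2, Hoxa9, Hoxa10, Hoxa11, Hoxd10, Hand2, Wt1, Twist2 and Zbtb20. They were chosen by symbol and matched to the gene identifiers of the deposited counts through the GENCODE annotation. All 10 were found among 49089 genes, and all 10 were among the 17222 genes that passed the filter of at least 3 CPM (counts scaled to library size) in at least 3 of 19 libraries. Endometrium was scraped from the myometrium of wild-type C57Bl/6 females and pooled, and its RNA was sequenced in 19 libraries. The CONT group held 3 libraries, numbered 1, 2 and 4, from virgin females at estrus. This tissue was taken late in the evening, around ovulation, on the day proestrus was seen. The INT group held 4 libraries from females at 3.5 days post coitum (day 3.5 pc) after mating with intact BALB/c males. They were killed at noon, so time of day also differs between CONT and INT and cannot be told apart from the stage. The females mated with intact males were 8 to 14 weeks old, and the ages of the other females are not given in the sources used here. The other sets, of 4 libraries each, SVX, SVX_VAS and VAS, came from day 3.5 pc females mated with surgically modified males. Different parts of their labels name different operations, so these groups carry only their column names here and no difference between them is tied to an operation. How many animals went into a pool is not given in the sources used here, so p-values measure the spread between pools.

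Msx1 and Msx2 encode homeodomain proteins, are expressed in the epithelium and stroma of the uterus before implantation, and are needed together for the uterus to accept an embryo. Hoxa9, Hoxa10, Hoxa11 and Hoxd10 belong to the Hox clusters, whose 5′ genes pattern the female reproductive tract. Hoxa10 and Hoxa11 continue to act in the adult stroma, where progesterone raises their expression. Hand2 is a bHLH factor of the stroma that lies downstream of progesterone and restrains FGF signaling to the epithelium. Twist2 is another bHLH factor of mesenchymal cells, Wt1 a zinc finger factor of mesothelium and uterine stroma, and Zbtb20 a zinc finger repressor.

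The Hox members lie on chromosome 6 and chromosome 2, and their upstream sequences are shown because Hoxa10, Hoxa11 and Hoxd10 had the most similar levels over the libraries of the Hox members described below. RefSeq (GRCm38.p6) promoters matched 9 of 10 members, with 10 start sites in all. Each line gives the 250 bases before the RefSeq start on the gene's own strand, with capitals on the homeodomain core TAAT or its reverse complement ATTA. The windows are chr6:52240855-52241104 (minus strand) for Hoxa10, chr6:52245811-52246060 (minus strand) for Hoxa11 and chr2:74691641-74691890 (plus strand) for Hoxd10.

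Hoxa10: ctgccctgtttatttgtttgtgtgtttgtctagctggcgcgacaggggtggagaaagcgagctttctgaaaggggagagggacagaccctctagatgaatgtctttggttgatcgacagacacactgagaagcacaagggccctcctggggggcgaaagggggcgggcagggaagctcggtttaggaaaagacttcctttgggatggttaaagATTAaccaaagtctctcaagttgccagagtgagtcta

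Hoxa11: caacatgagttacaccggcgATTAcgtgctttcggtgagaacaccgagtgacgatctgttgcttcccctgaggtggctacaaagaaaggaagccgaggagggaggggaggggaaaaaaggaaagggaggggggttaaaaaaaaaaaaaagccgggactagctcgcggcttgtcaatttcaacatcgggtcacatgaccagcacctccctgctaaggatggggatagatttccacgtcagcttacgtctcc

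Hoxd10: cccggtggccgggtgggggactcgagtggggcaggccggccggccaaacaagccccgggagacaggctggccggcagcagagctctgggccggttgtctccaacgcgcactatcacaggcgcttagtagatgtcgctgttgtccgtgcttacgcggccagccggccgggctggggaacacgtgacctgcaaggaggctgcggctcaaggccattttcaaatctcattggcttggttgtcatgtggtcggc

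The core occurred once in the Hoxa10 window shown and once in the Hoxa11 window, and these letters were not in the Hoxd10 window. Hoxa10 had a second start site, whose window (chr6:52234940-52235189, minus strand, not shown) held 2 copies. Of all 32851 promoters, 54.9% held the core on either strand within the same length. The Msx2 and Hand2 windows held 5 copies each. The E-box CANNTG, the sequence class bound by bHLH factors, was found in 66.2% of all promoters and occurred 2 times in the Hoxd10 window and once in the Hoxa11 window. The hormone receptor half-site TGTTCT, searched on both strands, was found in the windows of Hoxa9, Hoxa11 and Zbtb20, against 16.1% of all promoters. These matches describe letters only.

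Total counts ran from 12661266 to 31781270 per library, with the deepest library in CONT. The VAS 2 and VAS 3 libraries stood apart from the other 17. Their scaling factors by the trimmed mean of M values (TMM) were 1.29 and 1.33, against 0.848 to 1.02 elsewhere. Genes annotated as antisense summed to 4320 and 4290 CPM of total counts there, against 12000 to 13000 CPM in the other libraries. Of 978 antisense genes that passed the filter, 807 (82.5%) were lower in both libraries than in every other mated library, against 1404 of 13726 protein-coding genes (10.2%). The summed level of 9 stroma markers was 2140 and 2311 CPM in VAS 2 and VAS 3, against 7413 to 10961 CPM in the other 14 mated libraries, so the main VAS results on the members are also given without this pair. The part of this difference in the members' values was not tested. All levels below are CPM scaled by TMM.

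Of the 10 members, 9 were higher at day 3.5 pc than at estrus, with Msx2 the exception. In INT against CONT, Hoxa11 rose 6.57-fold, Hoxa10 rose 6.37-fold, Hoxd10 rose 6.33-fold and Hand2 rose 4.82-fold. Hoxa9 rose 4.67-fold, Twist2 3.99-fold, Zbtb20 3.21-fold, Wt1 2.94-fold and Msx1 2.18-fold. A gene was called at a false discovery rate (FDR) of at most 0.05 with a change of at least 1.5-fold in either direction (logFC, the log2 fold change), by edgeR's quasi-likelihood test. By this rule 9 of 10 members were called in INT against CONT, against 33.6% of the 17222 genes tested, and all 9 were higher, against 20.9% of genes called higher. The share called lower was 12.7%, and counts of other gene lists in INT against CONT are read against these shares. The median logFC was 2.11 over the members and -0.01 over all genes tested.

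**Figure D1:**
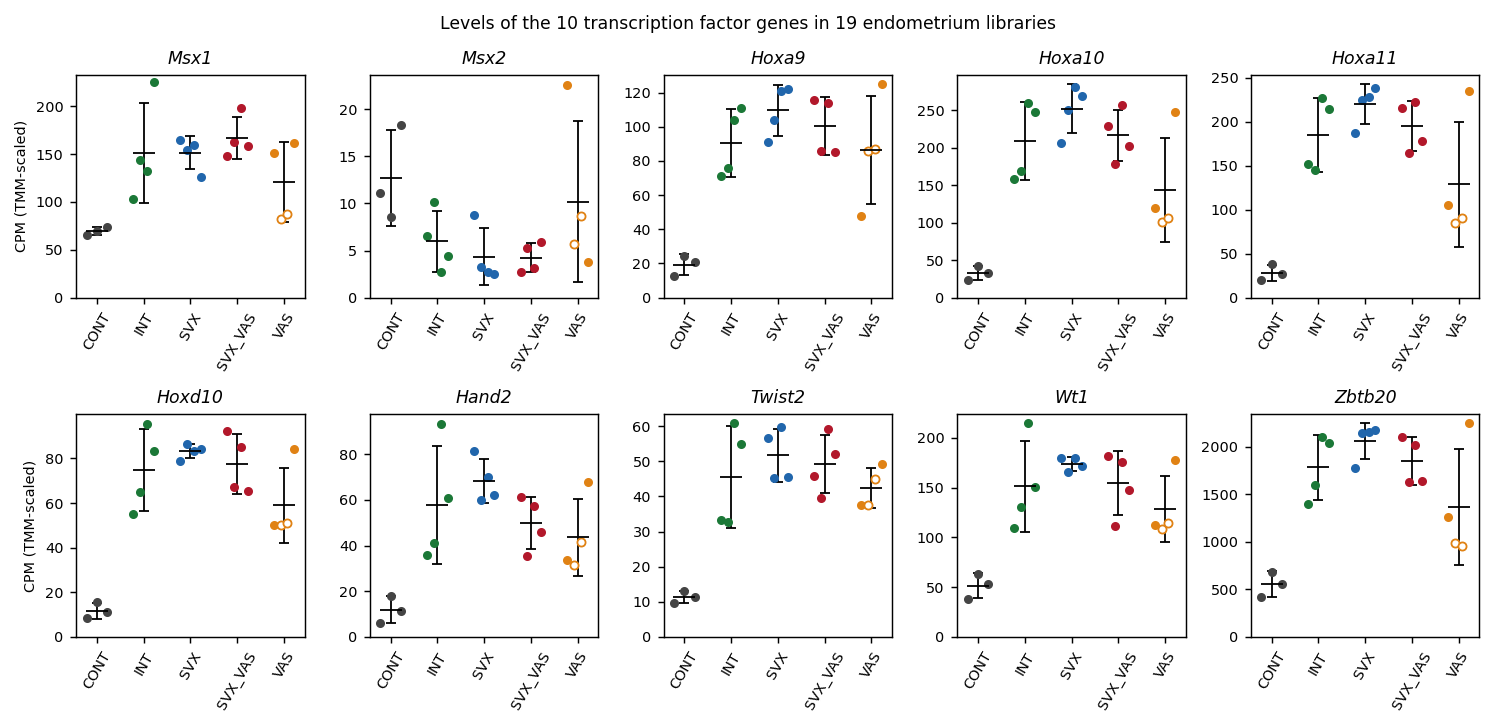
TMM-scaled CPM (y axis, linear, from 0) of each gene in every library, by group (x axis). Points are libraries, open points are VAS 2 and VAS 3, and the black line and bars are the mean and SD of 3 (CONT) or 4 libraries; for 9 genes all 16 mated libraries lie above the 3 estrus libraries, and for Msx2 the groups overlap except SVX_VAS and CONT.

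Among the Hox members, Hoxa10, which is needed for stromal cells to respond to the embryo, was measured at 23.2, 42.5 and 32.4 CPM in CONT 1, 2 and 4. It was measured at 159, 169, 260 and 247 CPM in INT 1 to 4. Levels were 206, 251, 281 and 270 CPM in SVX, 229, 178, 258 and 202 CPM in SVX_VAS, and 120, 101, 106 and 247 CPM in VAS. Every mated library was above every estrus library, and INT 1, INT 2 and the first 3 VAS libraries were the lowest of the mated ones. The logFC in INT against CONT was 2.67 (SE 0.32, FDR 1.09e-05). Hoxa10 lies at chr6:52231197-52240854 on the minus strand (ENSMUSG00000000938.11), and the counts cover 3270 exon bases.

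Hoxa11, its neighbor in the cluster (chr6:52242106-52245810, minus strand), was measured at 19.8, 38.0 and 26.4 CPM in CONT and at 152, 145, 227 and 215 CPM in INT. Its values were 187, 225, 229 and 239 CPM in SVX, 216, 164, 223 and 178 CPM in SVX_VAS, and 106, 84.4, 90.4 and 235 CPM in VAS. The groups at day 3.5 pc overlapped each other and none reached down to estrus. In INT against CONT the logFC was 2.72 (SE 0.34, FDR 1.52e-05). Hoxa11 followed Hoxa10 closely: the ratio of their counts stayed between 0.814 and 0.960 in all 19 libraries. The root mean square difference of their log2 CPM, after centering each gene, was 0.0655 over 19 libraries, and each was the closest gene to the other among all that passed the filter. Next closest to both was Igf1, a stromal growth factor, at 0.168 for Hoxa10 and 0.136 for Hoxa11.

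Hoxa9, on the 3′ side of Hoxa10 in the same cluster (chr6:52223100-52231089, minus strand), was measured at 12.6, 24.5 and 20.7 CPM in CONT. In INT it was measured at 70.9, 76.1, 104 and 111 CPM. Over the other mated libraries it ranged from 47.6 CPM in VAS 1 to 125 CPM in VAS 4, and no mated library overlapped estrus. Its logFC in INT against CONT was 2.23 (SE 0.29, FDR 2.44e-05), and its closest genes in pattern were Ggta1 (0.104) and Abcg2 (0.113). The Hoxa10 to Hoxa9 count ratio, in which library scaling cancels, was 1.56 to 1.83 at estrus and 1.98 to 2.51 in 14 mated libraries. In VAS 2 and VAS 3 it was 1.18 and 1.22, below all other libraries. Hoxa9 thus lay within the range of the other mated libraries there (85.5 and 86.8 CPM) while Hoxa10 and Hoxa11 were at their lowest mated values.

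Hoxd10 (chr2:74691924-74695105, plus strand) was measured at 8.56, 15.6 and 11.1 CPM in CONT and at 54.9, 65.0, 95.6 and 83.5 CPM in INT. In SVX the 4 values lay within 78.8 to 86.3 CPM, and the remaining mated libraries spanned 50.1 to 92.1 CPM. It rose in INT by a logFC of 2.66 (SE 0.25, FDR 2.56e-06). Its pattern was closest to Colec12 (0.092) and to its cluster neighbor Hoxd11 (0.111).

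Most of the other Hox genes called went in a direction that differed between clusters. Of 35 further Hox genes on the list, 15 passed the filter, and in INT against CONT 8 rose, 6 fell and 1 was not called. Counted with the members, 5 of 5 Hoxa genes and 6 of 6 Hoxd genes that passed the filter rose, with median logFC 2.23 and 2.17. In the Hoxb cluster 6 of 8 fell, 1 rose and 1 was not called, with a median of -0.76, against -0.01 over all genes. Hoxd11 rose by 2.52 (SE 0.23) and Hoxd9 by 2.20 (SE 0.22), while Hoxb7 fell by 0.92 (SE 0.21) and Hoxb4 fell by 0.90 (SE 0.14) on the log2 scale. The largest FDR of these 4 was 0.00183. Hoxb4 was measured at 47.9, 46.5 and 52.7 CPM in CONT and at 28.5, 29.1, 20.2 and 27.1 CPM in INT, so the groups did not overlap. Hoxb9 alone of its cluster rose (logFC 0.85, FDR 0.00862). No Hoxc gene passed the filter. The direction was the same in the 3 other comparisons with estrus, which share the 3 estrus libraries with INT against CONT. In SVX, SVX_VAS and VAS, 5 of 5 Hoxa and 6 of 6 Hoxd genes rose, and 6, 6 and 5 of 8 Hoxb genes fell. Of all genes, 23.1%, 22.2% and 23.3% were called higher there and 18.5%, 16.5% and 17.3% lower. Of 9 cofactors that bind DNA with Hox proteins, 5 rose and none fell in INT against CONT, with Pbx4 (logFC 2.78, FDR 2.48e-05) and Pknox2 (logFC 1.57, FDR 2.84e-05) the largest.

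**Figure D2:**
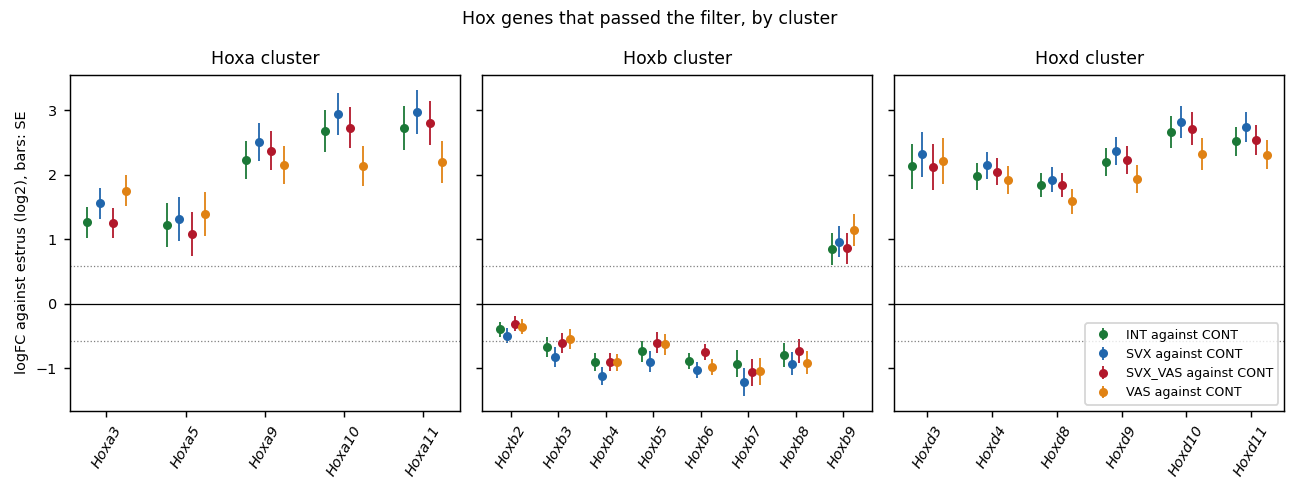
LogFC against estrus (y axis, log2, bars are SE) of each Hox gene that passed the filter (x axis), in the Hoxa, Hoxb and Hoxd clusters, for the 4 day 3.5 pc groups (n = 4 each) against CONT (n = 3). Dotted lines mark the 1.5-fold cutoff; all Hoxa and Hoxd genes lie above the upper line, and of the Hoxb genes only Hoxb9 lies above 0.

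Msx1 (chr5:37820485-37824583, minus strand) was measured at 65.2, 69.3 and 73.7 CPM in CONT. It was measured at 104, 143, 132 and 225 CPM in INT, at 165, 155, 160 and 126 CPM in SVX, at 148, 163, 198 and 159 CPM in SVX_VAS, and at 152, 82.0, 87.7 and 161 CPM in VAS. Estrus was the tightest group, the mated values lay above it throughout, and VAS 2 and VAS 3 came nearest to it. The logFC was 1.12 in INT (SE 0.26, FDR 0.00194), 1.13 in SVX, 1.27 in SVX_VAS and 0.80 in VAS (FDR 0.0138), each against CONT. Without VAS 2 and VAS 3 the VAS value was 1.17 (FDR 0.000891), and without CONT 1 it was 0.75 and no longer called (FDR 0.0514). It was also not called with limma-voom and sample quality weights (logFC 0.34, FDR 0.0968) or in a test against the fold cutoff (FDR 0.216). The genes closest to Msx1 in pattern were Aldh7a1 (0.20) and Id2 (0.207). Per kilobase of exon, Msx1 had the highest level of the 10 genes at estrus, at 22.4 ± 1.37 CPM per kb (SD, n = 3).

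Msx2 (chr13:53466884-53473074, minus strand), the paralog of Msx1, was low and went the other way in the samples. It was measured at 11.1, 8.52 and 18.4 CPM in CONT, and at 6.54, 10.1, 2.72 and 4.45 CPM in INT. Its levels were 8.82, 3.28, 2.76 and 2.49 CPM in SVX, 2.69, 5.29, 3.14 and 5.92 CPM in SVX_VAS, and 22.6, 5.66, 8.64 and 3.79 CPM in VAS. Of the 16 mated libraries 12 were below all estrus libraries, and VAS 1 was above them. Msx2 fell in SVX (logFC -1.54, SE 0.60, FDR 0.0371) and in SVX_VAS (logFC -1.57, SE 0.60, FDR 0.0357). It was not called in INT (logFC -1.08, 95% interval -2.34 to 0.17, FDR 0.147) or in VAS (logFC -0.31, FDR 0.661). Both calls were lost when single libraries were left out: without CONT 4 the values were -1.18 (FDR 0.151) in SVX and -1.21 (FDR 0.146) in SVX_VAS, and without CONT 1 both had FDR 0.0578. The SVX call was also lost without SVX 2 (FDR 0.086), SVX 3 (0.0932) or SVX 4 (0.0966), and the SVX_VAS call without SVX_VAS 1 (0.0916) or SVX_VAS 3 (0.0866). Both were also lost with no filter on low counts (FDR 0.0507 in SVX and 0.0503 in SVX_VAS) and in a test against the fold cutoff (0.113 and 0.117). Upper quartile scaling ended the SVX call (0.0523) and the replicate number as a block the SVX_VAS call (0.0599). The VAS difference was 0.07 (FDR 0.938) without VAS 2 and VAS 3, 0.05 without CONT 4 and -1.06, not called either, without VAS 1. With limma-voom and sample quality weights Msx2 was called in VAS (logFC -0.81, FDR 0.0459) and in INT (logFC -0.93, FDR 0.0422). The Msx1 to Msx2 count ratio was 4.01 to 8.13 at estrus and 6.70 to 63.1 in the 14 mated libraries, with 6.70 in VAS 1. The genes closest to Msx2 in pattern were Cdh4 (0.329) and Wnt7a (0.340), the latter an epithelial Wnt ligand, both farther from it than the closest genes were from any other member.

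Of 8 genes linked to Msx function in the uterus, 2 rose and 1 fell in INT against CONT, near the shares of all genes called higher (20.9%) and lower (12.7%). The tight junction gene Cldn1 rose (logFC 1.76, FDR 0.000147), as did the BMP ligand Bmp4 (logFC 0.87, FDR 0.0287), and the epithelial cadherin Cdh1 fell (logFC -1.32, FDR 0.00575). Of 4 genes linked to Hoxa10 that passed the filter, the prostaglandin receptor Ptger3 rose (logFC 3.17, FDR 4.06e-05) and the integrin Itgb3 fell (logFC -0.71, FDR 0.0287), counts again near the shares of all genes.

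Hand2 (chr8:57320983-57324633, plus strand) was measured at 6.32, 18.0 and 11.4 CPM in CONT and at 36.0, 41.0, 93.3 and 60.9 CPM in INT. Its levels were 81.5, 60.1, 70.1 and 62.2 CPM in SVX, 61.1, 35.6, 57.2 and 45.8 CPM in SVX_VAS, and 33.5, 31.6, 41.7 and 68.0 CPM in VAS. INT spanned nearly the whole mated range on its own. The logFC in INT against CONT was 2.27 (SE 0.39, FDR 0.000216). Around Hand2, the progesterone and hedgehog genes moved with 8 of 11 up and 1 down, led by the hedgehog mediator Gli1 (logFC 4.84, FDR 6.22e-07) and the ligand Ihh (logFC 4.52, FDR 6.72e-06). The progesterone receptor Pgr was not called (logFC 0.23, FDR 0.544), and Wnt4 fell (logFC -1.38, FDR 0.0462). Of 8 FGF ligands and receptors that passed the filter, 3 rose and none fell, against 20.9% of all genes called higher, namely Fgfr2 (logFC 1.48, FDR 2.91e-05), Fgf7 (logFC 1.08, FDR 0.00431) and Fgfr1 (logFC 0.72, FDR 0.00296). The FGF ligands Fgf1, Fgf2, Fgf9 and Fgf10 were not called.

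Twist2 (chr1:91801461-91848028, plus strand) was measured at 9.75, 13.2 and 11.2 CPM in CONT and at 33.3, 32.8, 60.9 and 54.9 CPM in INT. The 12 other mated libraries held 37.5 to 59.8 CPM. Over all 16 mated libraries Twist2 had the narrowest relative range of the 10 genes (1.86-fold from lowest to highest), whereas without VAS 2 and VAS 3 that of Zbtb20 was narrower (1.79-fold, against 1.86-fold for Twist2). Twist2 rose in INT by a logFC of 2.0 (SE 0.23, FDR 7.34e-06). Of 8 bHLH partners and related genes that passed the filter, 6 rose and none fell, among them its paralog Twist1 (logFC 1.95, FDR 0.000148) and the inhibitor Id3 (logFC 1.96, FDR 8.63e-06). Rab34 (0.138) and Gm37827 (0.149) were closest to Twist2 in pattern.

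Wt1 (chr2:105126529-105173616, plus strand) was measured at 38.1, 63.1 and 53.5 CPM in CONT and at 110, 131, 215 and 150 CPM in INT. In SVX the 4 libraries lay within 165 to 180 CPM, and INT 3 was the highest library of all. The logFC in INT against CONT was 1.56 (SE 0.25, FDR 0.000102). Wt1 also marks mesothelium, and of 5 mesothelium markers none was called in INT against CONT, with a summed level of 38.1 to 45.2 CPM at estrus and 24.6 to 33.1 CPM in INT. In SVX against CONT 3 of the 5 fell, where 18.5% of all genes were called lower, and Wt1 rose (logFC 1.76). None of the 5 was called in SVX_VAS or VAS against CONT. The part of mesothelium in the Wt1 levels was not tested. The closest genes to Wt1 in pattern were Dennd5a (0.0957) and Myc (0.135).

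Zbtb20 (chr16:42875881-43642602, plus strand) was measured at 416, 688 and 561 CPM in CONT and at 1393, 1592, 2099 and 2040 CPM in INT. In SVX the values were 1778, 2141, 2155 and 2173 CPM, and SVX_VAS spanned 1630 to 2103 CPM. VAS held 1260, 992, 961 and 2253 CPM, which are both the lowest and the highest mated values. Zbtb20 rose in INT by a logFC of 1.68 (SE 0.28, FDR 0.000175). The counts cover 30730 annotated exon bases of many transcript forms, so its level per kilobase rests on that length. The extracellular matrix gene Bgn (0.0918) and the complement gene C1s1 (0.102) were closest to it in pattern. Per kilobase of exon in INT, the order of the levels ran from Hoxa11 (80.8 ± 18.3, SD, n = 4), Hoxa10 (63.8), Zbtb20 (58.0), Msx1 (48.8) and Hoxd10 (41.2) to Hand2 (24.6), Wt1 (24.5), Hoxa9 (16.2), Twist2 (14.3) and Msx2 (1.82). At estrus Msx1 (22.4) and Zbtb20 (18.1) headed the order and Hoxa11 (12.3) followed.

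**Figure D3:**
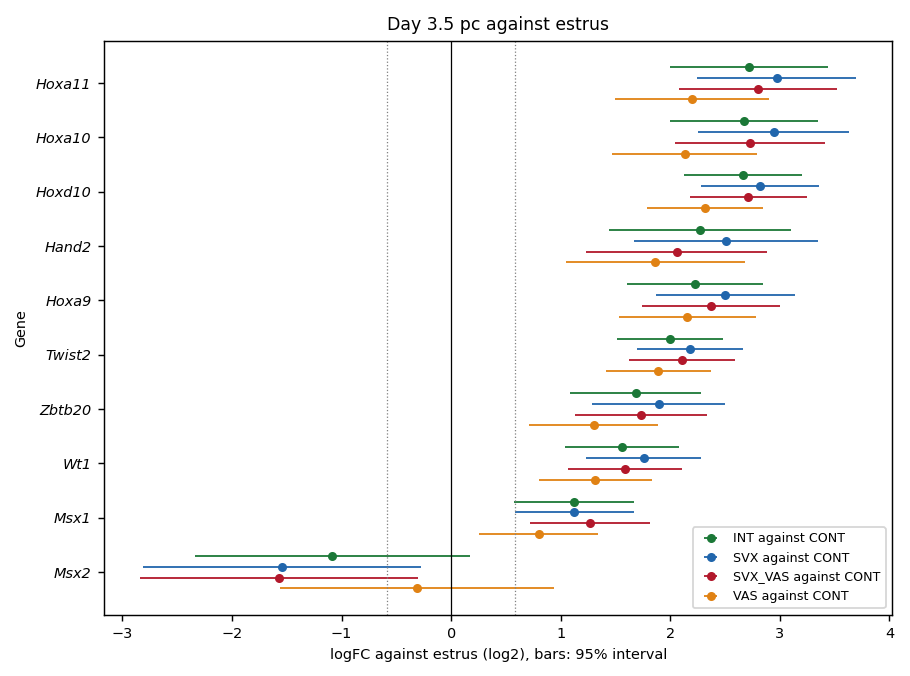
LogFC of the 10 genes (y axis) in the 4 day 3.5 pc groups (n = 4) against CONT (n = 3) from the edgeR fit (x axis, log2, with approximate 95% intervals). Dotted lines mark the 1.5-fold cutoff; 9 genes lie to the right of 0 in all 4 comparisons, from 0.80 for Msx1 in VAS to 2.97 for Hoxa11 in SVX, and Msx2 lies to the left.

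The same question was asked of the other mated groups. In SVX against CONT all 10 members were called (background 41.6%), 9 of them higher (background 23.1%). In SVX_VAS against CONT all 10 were called (38.6%), 9 of them higher (22.2%), and in VAS against CONT 9 were called (40.6%), all higher (23.3%). The median logFC over the members was 2.34, 2.08 and 1.88, and that over all genes was -0.01, -0.02 and -0.07. These comparisons share the 3 estrus libraries with INT against CONT and with each other. For 9 members all 16 mated libraries exceeded all 3 estrus libraries, a pattern that 22.4% of all genes tested also had. Without VAS 2 and VAS 3 the VAS count was still 9 (36.3% of all genes called), and the logFC of Hoxa10 moved from 2.13 to 2.49, that of Hoxa11 from 2.20 to 2.60 and that of Zbtb20 from 1.30 to 1.66, while Hoxa9 stayed at 2.16.

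Markers of the cell types that scraped endometrium can hold also differed between estrus and day 3.5 pc. Of 9 stroma markers 5 rose in INT and none fell, including Thy1 (logFC 1.73, FDR 7.27e-05) and Dpt (logFC 1.67, FDR 0.000461), whereas Col1a1 was not called (logFC -0.05, FDR 0.954). Of 8 epithelium markers 5 fell, led by Krt7 (logFC -2.29, FDR 0.0395) and Epcam (logFC -1.52, FDR 0.0385), and their summed level was 3949 to 5407 CPM at estrus against 646 to 2583 CPM in INT. All 7 endothelium markers rose, with Emcn (logFC 2.44) and Cdh5 (logFC 2.38) the largest. In bulk tissue fewer cells of a type and less RNA per cell cannot be told apart, and the part of these markers in the members' differences was not tested. Of 9 smooth muscle markers 2 rose, a share near the 20.9% of all genes called higher, namely Synpo2 (logFC 1.60, FDR 0.000143) and Des (logFC 0.85, FDR 0.0064). Of 9 leukocyte markers 5 passed the filter, of which 4 rose, with Cd3e (logFC 2.84) and Ptprc (logFC 1.35) the largest, and Cd68 fell (logFC -1.22, FDR 0.0233). Of 4 gland markers 3 rose, led by Cxcl15 (logFC 6.45) and Spink1 (logFC 5.88). Every marker of the epithelium, gland, stroma, smooth muscle and endothelium lists had counts in every library.

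Transcription factors outside the 10 were counted by list. Of 20 further stromal transcription factor genes that passed the filter, 13 rose, 1 fell and 6 were not called in INT against CONT, with a median logFC of 1.11. Snai1 (logFC 3.08, FDR 1.57e-05) and Foxf1 (logFC 2.84, FDR 6.49e-06) rose most and Cebpb fell (logFC -1.24, FDR 0.00739). Of 13 epithelial transcription factor genes, 9 fell, 1 rose and 3 were not called, with a median of -1.04. Elf3 (logFC -2.42, FDR 0.0399) and Ovol2 (logFC -2.21, FDR 0.00635) fell most, and Foxa2, a factor of the glands, rose (logFC 2.0, FDR 0.000219). Of 7 progesterone response genes 6 rose, led by Calca (logFC 5.93) and Areg (logFC 5.14). Of 8 estrogen response genes 2 fell, Greb1 (logFC -2.50, FDR 0.0132) and Muc1 (logFC -2.25, FDR 0.0312), and of 8 proliferation genes none was called. In SVX, SVX_VAS and VAS against CONT 7, 2 and 3 estrogen response genes fell, and 1, 4 and 1 proliferation genes fell, against 18.5%, 16.5% and 17.3% of all genes called lower.

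Between the mated groups no member was called in any of 6 comparisons by edgeR's quasi-likelihood test, and no other gene was. The background was 0.0% in SVX against INT, 0.0% in SVX_VAS against INT, 0.0% in VAS against INT, 0.0% in SVX_VAS against SVX, 0.0% in VAS against SVX and 0.0% in VAS against SVX_VAS. At an unadjusted p under 0.05 the members counted 0, 0, 0, 0, 5 and 3 in that order, and the shares of all genes were 4.35%, 1.97%, 10.6%, 1.39%, 15.4% and 14.6%. Without VAS 2 and VAS 3 the members counted 0 in VAS against INT and 1 (Msx2) in each of VAS against SVX and VAS against SVX_VAS, and the shares of all genes were 0.861%, 3.91% and 5.55%. DESeq2 also called 0 members in all 6 and 3, 2, 0, 0, 1 and 27 genes. Limma-voom called 1 member in VAS against SVX, 0 in the others, and 1663 (9.66%), 1656 (9.62%) and 1807 (10.5%) genes in VAS against INT, SVX and SVX_VAS. With sample quality weights, which lower the influence of libraries far from their group, it called 4, 7 and 5 members in these VAS comparisons. The shares of all genes were 27.5%, 27.0% and 27.0%. In VAS against INT the 4 were Msx1, Hoxa10, Hoxa11 and Zbtb20, at logFC -0.67, -0.78, -0.83 and -0.70. In edgeR they were -0.33, -0.54, -0.52 and -0.38, and without VAS 2 and VAS 3 they were 0.05, -0.19, -0.12 and -0.02. The weighted values thus moved away from those without this pair, and the weight of each library was not examined. For the 9 members other than Msx2, the group means of all mated groups stood in an order whose neighboring groups were not called different and whose libraries overlapped. VAS had the lowest mated mean of 9 members and the highest of Msx2. Without VAS 2 and VAS 3 it was lowest for 7, since Msx1 (156 CPM) then stood above INT and SVX, and Hand2 (50.8 CPM) above SVX_VAS. The share of all genes with their lowest mated mean in VAS was not computed, so these counts have no background.

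The intervals show what sizes remain possible. For Hoxa10 the logFC against INT was 0.27 in SVX (95% interval -0.30 to 0.84), 0.05 in SVX_VAS (-0.51 to 0.62) and -0.54 in VAS (-1.11 to 0.03). For Twist2 the values were 0.18 (-0.23 to 0.60), 0.11 (-0.30 to 0.52) and -0.11 (-0.52 to 0.31). Msx2 was the least well bounded, with -0.46 (-1.65 to 0.74), -0.49 (-1.68 to 0.70) and 0.77 (-0.41 to 1.95). Without VAS 2 and VAS 3 the VAS values were -0.19 for Hoxa10, -0.07 for Twist2 and 1.15 for Msx2, each with FDR 0.9999. The VAS differences depended on single libraries. VAS 4 had the highest level in its group of every member except Msx2. In VAS against INT 2 members were called without VAS 4 (background 0.779%). In VAS against SVX 4 were (3.98%), and in VAS against SVX_VAS 3 were (3.34%). Without VAS 1 no member was called in VAS against INT, where 3.35% of all genes were. Without VAS 2 and VAS 3 no member was called.

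The sums of other gene lists also differed between libraries of the same mated group. In INT 1, INT 2, SVX_VAS 2 and VAS 1 the summed level of 8 estrogen response genes was 10482, 4068, 11082 and 3560 CPM, against 605 to 1592 CPM in the other 12 mated libraries and 12220 to 15632 CPM at estrus. The 8 epithelium markers summed to 2583, 2180, 2010 and 2309 CPM in these 4 libraries and to 534 to 1352 CPM in the other 12. Hoxa10 was 159, 169, 178 and 120 CPM in the same 4 libraries, and only VAS 2 and VAS 3 were also below 200 CPM. Msx2 was 6.54, 10.1, 5.29 and 22.6 CPM there. Msx1 did not stand to one side, with 104, 143, 163 and 152 CPM (ranks 3, 6, 13 and 8 from the lowest of 16). The lowest mated Hoxa10 levels, 101 and 106 CPM in VAS 2 and VAS 3, stood beside low epithelium sums of 698 and 534 CPM. Msx2 was above the 5.29 CPM of SVX_VAS 2 in 4 libraries with lower sums, at 8.82 CPM in SVX 1, 8.64 CPM in VAS 3, 5.92 CPM in SVX_VAS 4 and 5.66 CPM in VAS 2. The part of tissue make-up or of the hormonal state in these differences was not tested.

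**Figure D4:**
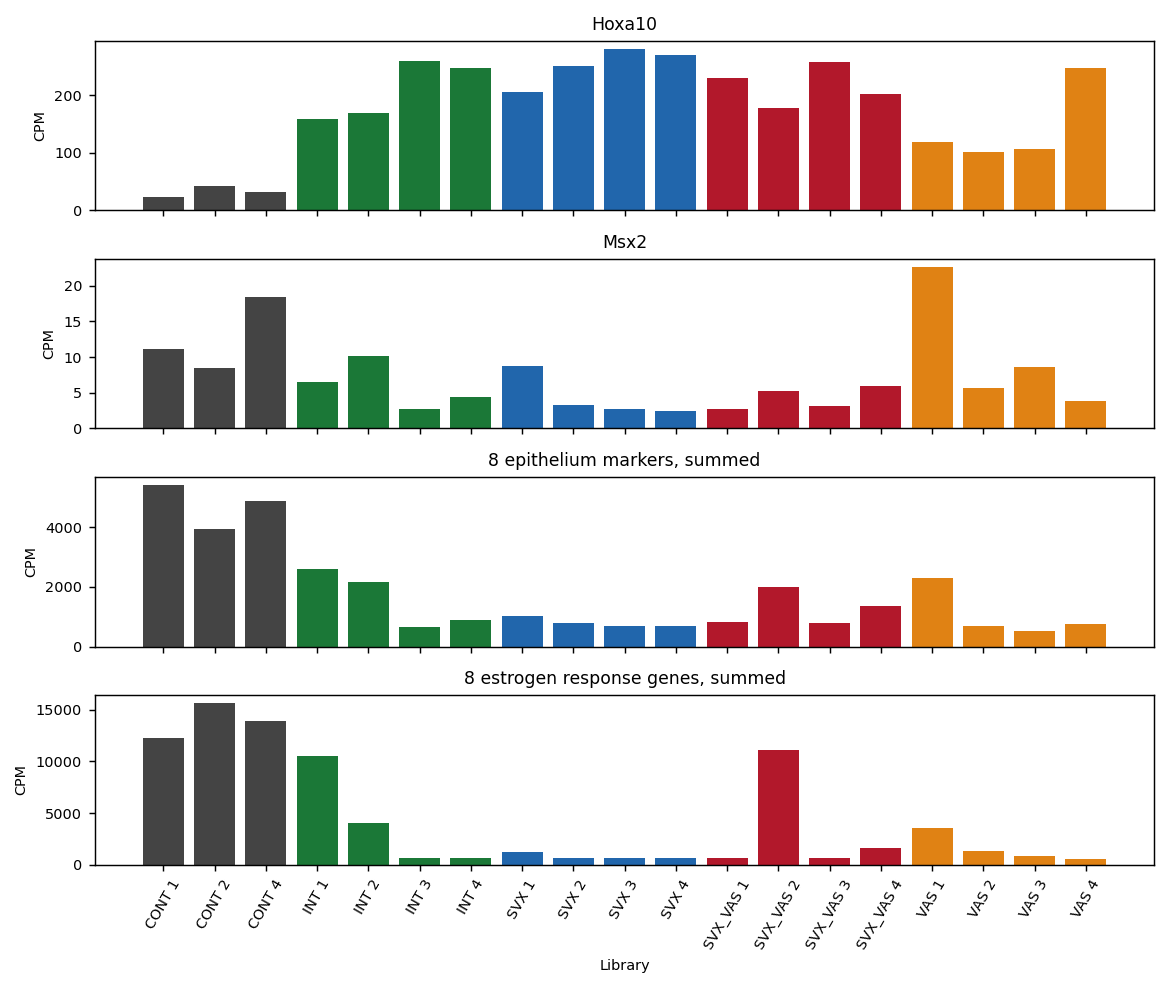
TMM-scaled CPM (y axes, linear, from 0) in each of 19 libraries (x axis, colored by group) of Hoxa10, Msx2, the sum of 8 epithelium markers and the sum of 8 estrogen response genes. Among the mated libraries INT 1, INT 2, SVX_VAS 2 and VAS 1 have the 4 highest sums in both lower panels and Hoxa10 levels of 120 to 178 CPM.

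Hoxa11, Hand2 and Twist2 share 19.6% or more of their exon bases with a gene on the opposite strand, which bears on their counts because the strand setting of the counting is not given in the sources used here. Gm29100 covers 1477 of 3174 Twist2 exon bases (46.5%), Hoxa11os covers 800 of 2287 Hoxa11 bases (35.0%) and Hand2os1 covers 461 of 2351 Hand2 bases (19.6%). These partners rose as well in INT against CONT, Hoxa11os by 3.14 (FDR 3.73e-05), Hand2os1 by 1.97 (FDR 3.66e-05) and Gm29100 by 2.01 (FDR 0.00743) on the log2 scale. The Twist2 to Gm29100 count ratio was 1.69 to 2.14 in 17 libraries and 9.76 and 10.7 in VAS 2 and VAS 3, where Gm29100 was 3.85 and 4.21 CPM against 15.6 to 34.6 CPM in the other mated libraries. Twist2 itself was 37.5 and 45.0 CPM in this pair, within the range of the other mated libraries. Gm15713, an antisense gene inside a Zbtb20 intron, had 0 counts in VAS 2 and VAS 3 and 13.0 to 19.8 CPM in the other mated libraries. Hoxa11os was at 31.6 and 30.5 CPM in the pair against 46.9 to 120 CPM elsewhere at day 3.5 pc, and Hand2os1, at 40.2 and 43.7 CPM, lay within the range of the others (34.9 to 71.6 CPM). The Hoxa11 to Hoxa11os count ratio was 2.67 and 2.96 in the pair, 1.88 to 2.25 in the other 14 mated libraries and 2.53 to 2.99 at estrus. The Hand2 to Hand2os1 ratio was 0.728 to 1.33 over all 19 libraries, and Hand2os1 was the closest gene to Hand2 in pattern (0.207). Zbtb20 shares 104 of 30730 exon bases (0.338%) with the opposite-strand gene Gm9968, which was at 0.556 and 0.561 CPM in VAS 2 and VAS 3 and at 16.2 to 26.6 CPM in the other mated libraries. Hoxd10 shares 104 of 1816 exon bases (5.73%) with Gm28309 on its own strand, which reached at most 1.07 CPM. For Twist2, Hoxa11 and Hand2, reads from the shared bases may belong to either gene. The levels and the rises of both genes of each pair are uncertain to that extent.

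**Figure D5:**
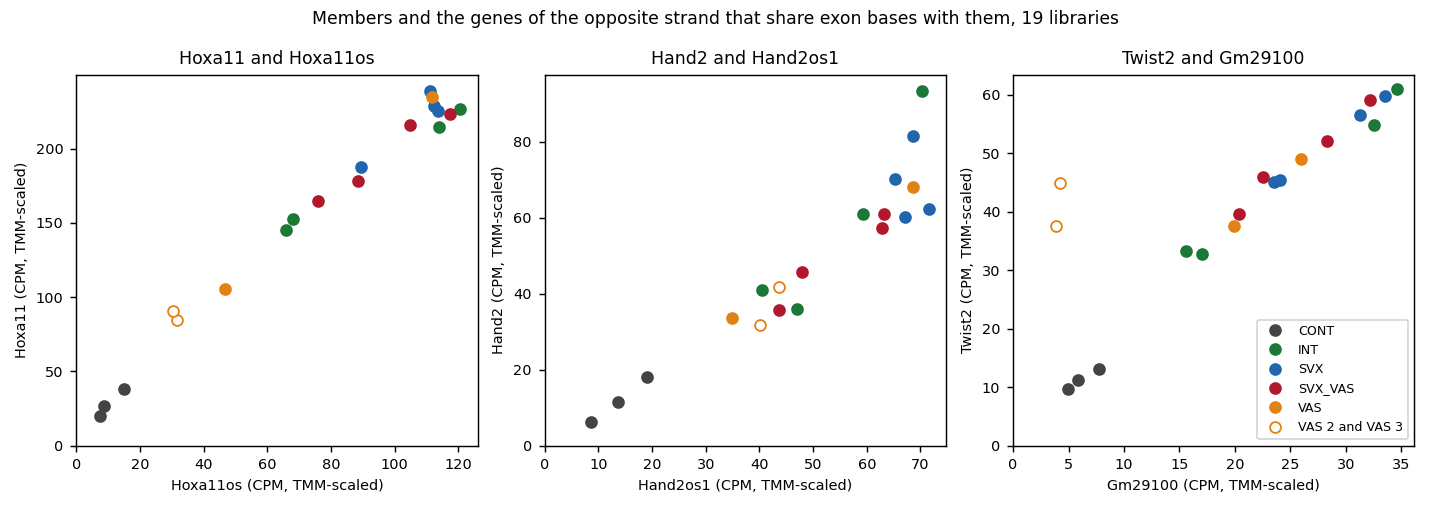
TMM-scaled CPM of Hoxa11, Hand2 and Twist2 (y axes) against the opposite-strand gene that shares exon bases with each (x axes), 1 point per library, colored by group. Open points are VAS 2 and VAS 3, which lie with the others for Hand2 and apart for Twist2, where Gm29100 is 3.85 and 4.21 CPM; for Hoxa11 both genes are below all other mated libraries, at 84.4 and 90.4 CPM against 31.6 and 30.5 CPM of Hoxa11os.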

How the data were processed

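The authors prepared stranded total RNA libraries from pooled endometrium, sequenced them from both ends, removed adapters, aligned reads with STAR to GRCm38 (mm10) and counted them per gene with featureCounts. Their FastQC and counting versions, and the strand setting, are not given in the sources used here. The table deposited by the authors holds unnormalized read counts, 1 column per library, all of them used. Symbols were joined from GENCODE vM21, whose coordinates equal those of the file for the 10 genes. Members and gene lists were chosen with earlier results of these data known.

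Counts were scaled by TMM and fitted over all 5 groups with the quasi-likelihood test of edgeR 4.0.16 in R 4.3.3, with Benjamini-Hochberg adjustment over all genes tested. Alternatives used limma 3.58.1, DESeq2 1.42.0, other scalings and filters, a replicate block, and libraries left out. No pair of libraries within a group agreed within sampling noise (lowest chi-square per degree of freedom 3.51). Besides the 10 members and the genes sharing exon bases with them or next to them, the text names, per list, the genes called in INT against CONT with the 2 largest rises and falls, and for each member the 2 closest genes by centered log2 CPM (prior count 2). Other list genes named (Hoxb9, Pgr, Fgfr1, the uncalled FGF ligands, Col1a1) were chosen after their values were seen. Intervals of logFC are approximate, from the SE and the degrees of freedom of the fit.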

Additional observations from a re-analysis of the deposited data

Results flagged for a closer look

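Dixon's ratio was computed for the highest and lowest library of each 4-library group, for 10 genes (40 gene and group pairs). It passed the 95% critical value in 6, where about 2 would do so by chance if the pairs were independent. They are not, since genes with similar levels share the same libraries and VAS 4 held most of the 6. VAS 4 held the highest Hoxa10 (247 CPM, the next at 120), Hoxa11 (235 CPM, the next at 106), Hoxd10 (84.4 CPM, the next at 51.3) and Wt1 (178 CPM, the next at 114) of its group, with gaps of 0.871, 0.859, 0.965 and 0.914 of the group's range. These VAS 4 values lay within the range of the other mated groups. SVX 1 held the highest Msx2 of its group (8.82 CPM, the next at 3.28) and the lowest Zbtb20 (1778 CPM, the next at 2141).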

How the results depend on the processing

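Against estrus, 687 of 710 values of the members' logFC under the alternatives kept their direction and their side of the cutoffs, 18 lost the call, 2 gained it (Msx2 in INT and in VAS with quality weights) and 3 changed sign. All values of Hoxa9, Hoxa10, Hoxa11, Hoxd10, Hand2, Wt1, Twist2 and Zbtb20 against estrus stayed called, and the counts of members called against estrus were 8 to 10 throughout. Msx1 in VAS against CONT lost its call with quality weights, with a test against the fold cutoff and without CONT 1, and Msx2 in SVX and SVX_VAS was lost in 15 values in all. Against INT, 36 of 570 values changed sign, all of them uncalled.

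Between mated groups the count of members called was 0 in edgeR. It was 1 in VAS against SVX with limma-voom (9.62% of all genes), and 4 in VAS against INT, 7 in VAS against SVX and 5 in VAS against SVX_VAS with limma-voom and sample quality weights (27.5%, 27.0% and 27.0% of all genes). Leaving out libraries singly, the count ran from 0 to 2 in VAS against INT, 0 to 4 in VAS against SVX and 0 to 3 in VAS against SVX_VAS, the higher value always without VAS 4 (0.779%, 3.98% and 3.34% of all genes). The cause was not tested.

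Signs changed with no filter for Msx1 in SVX against INT (-0.0022), with upper quartile scaling for Hoxa9 in VAS against INT (0.0037), and with quality weights for Hoxa9 (0.059) and Twist2 (0.13) in VAS against INT and Hand2 in SVX_VAS against INT (0.15). With SVX 1, VAS 2 and VAS 3 left out, Msx1 was -0.031 in SVX against INT and 0.042 in VAS against INT, and Msx2 was 0.065 in VAS against CONT. With only VAS 2 and VAS 3 left out, a choice made after seeing the data, these VAS values were 0.049 and 0.073. Leaving out single libraries gave ranges across 0 for Msx1 in SVX against INT (-0.14 to 0.26) and in SVX_VAS against INT (-7.3e-05 to 0.40), and for Msx2 in VAS against CONT (-1.06 to 0.051). In VAS against INT the ranges were -0.30 to 0.13 for Hoxa9, -0.44 to 0.012 for Wt1 and -0.23 to 0.10 for Twist2. In SVX_VAS against INT they were -0.056 to 0.19 for Hoxa10, -0.017 to 0.21 for Hoxa11, -0.071 to 0.21 for Hoxd10, -0.38 to 0.13 for Hand2, -0.099 to 0.26 for Wt1, -0.016 to 0.30 for Twist2 and -0.048 to 0.15 for Zbtb20.

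Deviations of same-numbered libraries of different groups had correlations of -0.69 to 0.58 (median 0.047, 15 of 36 over 0.1). For other-numbered libraries these were -0.75 to 0.77 (median -0.034, 35 of 108 over 0.1). The first range lay within the second, and the numbers were not taken as pairs in the main fit. With the replicate number as a block 9, 10, 9 and 9 members were called in INT, SVX, SVX_VAS and VAS against CONT and 0 between mated groups (32.6%, 40.2%, 37.2%, 39.4% and 0.0% of all genes), and Msx2 in SVX_VAS was -1.41 (FDR 0.0599).

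Limits are the 3 estrus libraries, their collection in the evening against noon in INT, the pooled tissue, the unnamed number of animals, and the VAS 2 and VAS 3 libraries. Msx2, at 2.49 to 22.6 CPM, has the fewest counts of the members in all 16 mated libraries and the widest intervals.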
